A study of Rattus norvegicus with 4 samples.

Results

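Mesothelium, the single-layered epithelium that covers the pancreas and the other abdominal organs, was followed in rat pancreas through a list of 10 genes: Msln, Upk3b, Upk1b, Wt1, Prg4, Calb2, Lrrn4, Muc16, Gpm6a and Ucma. Probes belonged to the list when the symbol that the authors' tables gave them, or the gene of their accession, was one of these names. By this criterion 9 of the 10 genes were on the array, with 12 of 30367 gene probes. Upk3b had no probe by this criterion and is not described further. Upk1b had 2 probes, Wt1 had 3 and each other gene had 1. The list was chosen from earlier results of these same arrays, which included the ratios given below, so these describe its genes. No test between diets was possible for them, and tests between arrays of the same RNA stand among the alternatives only.

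Weanling male Sprague-Dawley rats were kept for 3 weeks on a diet with 5 ppm iron (deficient, FeD), 35 ppm iron (adequate, FeA) or 20275 ppm iron (overload, FeO), per the labels. Total RNA from the pancreases of 6 rats per diet was combined into 1 pool. Pooled FeD RNA and pooled FeO RNA were each compared with pooled FeA RNA on 2 arrays with 2 dyes. On array 1 the diet pool carried Cy5 and on array 2 it carried Cy3. The swapped arrays carry identical RNA, so their difference is technical and no diet could be tested over rats.

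Mesothelial cells make the lubricated surface on which abdominal organs slide, and they derive from the mesoderm that lines the body cavity. They are known for a keratin cytoskeleton together with mesodermal transcription factors, and for surface glycoproteins that bind one another across the cavity. Mesothelin (Msln) is a surface glycoprotein anchored by lipid, and mucin 16 (Muc16) is a large membrane mucin that binds it. Upk1b is a tetraspanin of the uroplakin family, first known from bladder epithelium. Wt1 is a zinc finger transcription factor of mesothelium and kidney podocytes. Lrrn4 and Gpm6a are membrane proteins that neurons also make, and calretinin (Calb2) is a calcium-binding protein of neurons and mesothelium. Prg4 encodes lubricin, a secreted lubricating proteoglycan of joints and serous surfaces. Ucma encodes a secreted Gla-rich protein known chiefly from growth plate cartilage, and it is not a usual mesothelial marker.

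The promoters below are those of the genes on the list whose mean log2 ratio in FeO against FeA was at least 0.8 by a probe and for which RefSeq gave one, Wt1, Prg4, Upk1b and Ucma. They are shown because of these ratios, which Wt1 (1.11) and Upk1b (0.86) reached by their brightest probe only. Shared regulation was not tested. Msln was in the same range but its promoter is not shown. Each runs 5′ to 3′ from 250 bases before to 50 after the annotated start (RefSeq, build GRCr8). Capitals mark matches to a searched motif on either strand.
Wt1 (chr3:112021759-112022058, plus strand): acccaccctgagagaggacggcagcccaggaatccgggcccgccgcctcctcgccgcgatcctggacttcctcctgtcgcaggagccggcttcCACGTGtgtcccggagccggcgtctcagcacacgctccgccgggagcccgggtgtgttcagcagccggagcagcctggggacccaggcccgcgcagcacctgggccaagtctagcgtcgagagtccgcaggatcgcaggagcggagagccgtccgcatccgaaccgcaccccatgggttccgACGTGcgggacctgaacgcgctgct
Prg4 (chr13:65054176-65054475, minus strand): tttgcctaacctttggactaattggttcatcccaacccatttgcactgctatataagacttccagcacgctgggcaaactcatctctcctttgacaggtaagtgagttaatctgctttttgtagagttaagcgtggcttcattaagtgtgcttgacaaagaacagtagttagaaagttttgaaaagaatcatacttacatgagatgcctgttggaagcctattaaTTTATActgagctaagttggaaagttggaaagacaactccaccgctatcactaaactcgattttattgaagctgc
Upk1b (chr11:75459131-75459430, plus strand): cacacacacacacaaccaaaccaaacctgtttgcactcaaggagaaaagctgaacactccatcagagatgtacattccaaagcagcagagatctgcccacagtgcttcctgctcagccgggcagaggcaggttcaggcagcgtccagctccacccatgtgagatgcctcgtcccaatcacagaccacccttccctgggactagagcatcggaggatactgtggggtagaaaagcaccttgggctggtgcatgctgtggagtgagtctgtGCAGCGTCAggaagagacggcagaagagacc
Ucma (chr17:78212947-78213246, minus strand): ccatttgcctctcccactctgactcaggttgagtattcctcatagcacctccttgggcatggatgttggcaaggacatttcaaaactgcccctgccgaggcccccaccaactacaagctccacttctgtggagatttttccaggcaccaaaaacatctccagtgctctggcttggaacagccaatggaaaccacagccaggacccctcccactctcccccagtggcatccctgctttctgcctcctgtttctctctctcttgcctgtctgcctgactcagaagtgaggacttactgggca

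The motifs searched were ACGTG (the core of the hypoxia response element), TGACNNNGC (the core of the antioxidant response element), GCGNGGGNG (a GC-rich site of WT1 and EGR1), GGGCGG (the GC box) and TATAAA (the TATA box). Among 33469 promoters of the same length, these were found in 19.3%, 12.1%, 10.8%, 33.1% and 14.2%, respectively. The Wt1 promoter held CACGTG from position -157, in which ACGTG is read on both strands, and ACGTG again at 26. The Upk1b promoter held TGACNNNGC on the reverse strand at 20, and the Prg4 promoter TATAAA on the reverse strand at -25. The Ucma promoter held none of these letters in this window. The GC content was 71.0% for Wt1 and 39.3% for Prg4, against a median of 51.7% over all promoters.

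Per channel, the median spot signal was 115 to 222.5 intensity units over a median local background of 50 to 87, and 61.9% to 71.5% of gene spots were well above background by the scanner software's criterion. Each level below is a channel intensity after normexp background correction, loess and Aquantile normalization, and each ratio is a log2 ratio within an array after loess. The median difference between the swapped arrays was 0.22 in log2 ratio for FeD and 0.23 for FeO, and it was below 0.72 and 0.78, respectively, for 95% of the probes tested. Msln, Upk1b, Gpm6a and Ucma were well above background in every pool on every array by at least 1 probe, whereas Muc16 was not in any. In whole-tissue RNA, fewer cells of a type and less RNA per cell cannot be told apart. Levels are compared between pools for the same probe only.

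**Figure D1:**
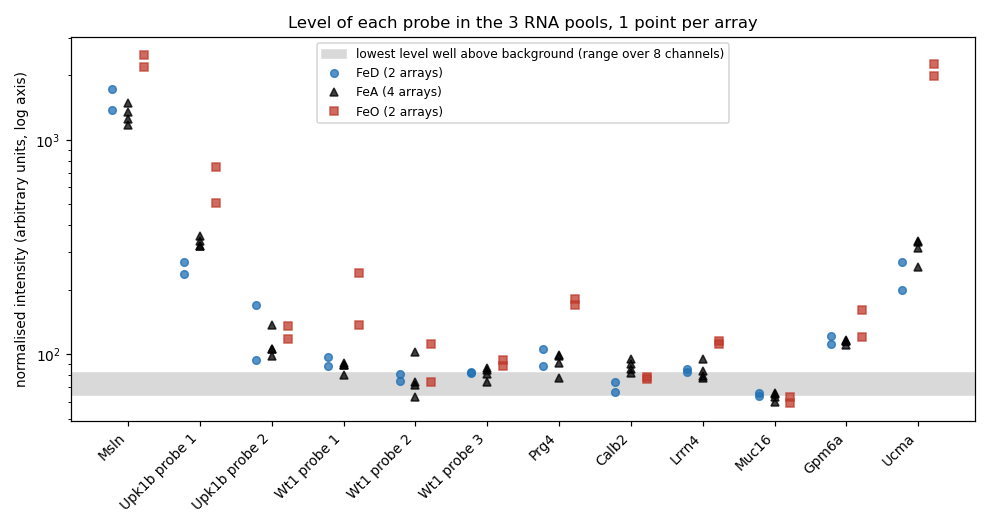
Normalised intensity (vertical log axis, arbitrary units) of the 12 probes in the FeD, FeA and FeO pools, with 1 point per array and channel. The grey band spans the lowest level called well above background, 64.4 to 81.8 over the 8 channels. Ucma (1994.0 and 2267.3) and Msln (2183.5 and 2497.5) had the highest FeO points, and the Muc16 points lay within or below the band in every pool. Upk1b probes 1 and 2 are A_43_P11086 and A_64_P130269, and Wt1 probes 1 to 3 are A_44_P808666, A_64_P140507 and A_64_P142861.

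Ucma was the gene on the list that differed most. Its normalised intensity was 2267.3 and 1994.0 in the FeO pool, 336.0, 313.3, 334.8 and 255.5 in the FeA pool, and 268.0 and 198.5 in the FeD pool. Both FeO values lay far above all FeA values. Of the FeD values, 1 lay below all FeA values and the other lay within their range. Relative to FeA pancreas, Ucma had log2 ratios of 2.76 and 2.96 in FeO (mean 2.86, a 7.27-fold higher level), which placed it 5th from the highest of 16433 genes. In FeD the ratios were -0.33 and -0.66 (mean -0.49), 153rd from the lowest of 15733 genes. The arrays differed from each other by 0.20 in FeO and 0.33 in FeD. Ucma was well above background in all pools on all arrays.

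The methods of the study called genes by a log2 ratio of 2 in size together with a p-value. Here the size alone was used, with the same sign required on both arrays. Ucma was the only gene on the list past this size in FeO against FeA, where 0.0609% of genes tested were called higher and 0.134% lower. In FeD against FeA 0 genes on the list passed, where 0.0191% of genes were called higher and 0.089% lower. With a log2 ratio of 1, Wt1 was also past it in FeO by 1 of its 3 probes, against 0.663% of genes called higher and 0.505% lower. In FeD it remained 0, against 0.127% higher and 0.248% lower. Of the 9 genes, 6 passed the filter on dim probes in FeD and 7 in FeO. Calb2 and Muc16 passed in neither. Lrrn4, Prg4 and Wt1 passed in FeO only through the FeO pool, since FeA was not well above background on both arrays.

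Msln was the other bright gene. Its intensity was 2497.5 and 2183.5 in the FeO pool, 1348.8, 1249.5, 1481.6 and 1172.3 in the FeA pool, and 1382.1 and 1726.2 in the FeD pool. The FeO values did not overlap those of FeA or FeD, whereas FeD and FeA overlapped. The log2 ratios were 0.75 and 0.90 in FeO (mean 0.83, 1.77-fold higher, 152nd of 16433 genes) and 0.04 and 0.47 in FeD (mean 0.25). The FeO mean was larger than the 0.14 by which its arrays differed, and the FeD mean was smaller than the 0.43 by which its arrays differed. Muc16, which binds mesothelin, had intensities of 59.1 to 66.1 in all pools, not well above background in any, so no fold is given.

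The 2 Upk1b probes gave different ratios. By the brighter probe, A_43_P11086, the intensity was 743.8 and 505.7 in FeO, 321.0, 335.8, 319.1 and 356.2 in FeA, and 269.5 and 236.8 in FeD. The pools did not overlap, with FeO highest and FeD lowest. Its log2 ratios were 1.22 and 0.51 in FeO (mean 0.86) and -0.25 and -0.50 in FeD (mean -0.38). By the dimmer probe, A_64_P130269, the FeO pool gave 118.1 and 136.1, the FeD pool 93.6 and 170.6, and the FeA pool between 97.9 and 136.6, so all pools overlapped. That probe had mean log2 ratios of 0.26 in FeO and 0.13 in FeD, the latter with opposite signs on the arrays. Other uroplakins build the plaques of bladder epithelium with Upk1b. Upk1a and Upk3a had mean log2 ratios of 0.11 and 0.13 in FeO, and Upk2 (-0.14 and -0.04) was well above background in FeO on 1 array and in FeA on none.

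Wt1 was near the detection limit. By probe A_44_P808666 its intensity was 239.9 and 137.6 in FeO, 89.5, 91.1, 88.7 and 79.8 in FeA, and 96.8 and 88.6 in FeD. Both FeO values were above all others, which overlapped one another. The log2 ratios were 1.43 and 0.79 in FeO (mean 1.11) and 0.11 and -0.04 in FeD. FeA was well above background on 1 of the 2 FeO arrays. The other Wt1 probes did not show this difference. A_64_P142861, at 87.9 and 94.0 in FeO and 74.4 to 86.5 in FeA, had ratios of 0.02 and 0.22 (mean 0.12, 1.09-fold). Its FeA signal was not well above background, so that fold rests on a dim signal. A_64_P140507, well above background in FeO and in FeA on 1 array each, had a mean of 0.17.

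Lrrn4 and Gpm6a, which encode membrane proteins, had smaller positive ratios in FeO against FeA. Lrrn4 had intensities of 111.4 and 114.8 in FeO, 77.3 to 95.2 in FeA and 83.0 and 85.3 in FeD. Its FeO values lay above the rest, with log2 ratios of 0.23 and 0.57. FeA was below the detection criterion on both arrays, so the Lrrn4 mean of 0.40 (1.32-fold) rests on a dim signal. Gpm6a had intensities of 161.3 and 120.6 in FeO, 110.6 to 116.7 in FeA, and 121.4 and 111.9 in FeD, so FeO and FeD overlapped. Its FeO log2 ratios of 0.47 and 0.06 differed by 0.41, more than their mean of 0.26.

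Calb2 was near the detection limit, with negative ratios in both diets. Its intensity was 78.0 and 76.9 in FeO, 66.5 and 74.3 in FeD and 81.5 to 95.4 in FeA, so both diet pools lay below the FeA range. The log2 ratios were -0.29 and -0.23 in FeO and -0.29 and -0.20 in FeD. Calb2 was well above background in FeA on 1 array of each comparison, in FeO on 1 array and in FeD on neither. It passed the filter in neither comparison, so no fold is given. Of 10 genes fixed as neuronal markers, 6 passed the filter in FeO, with ratios from -0.29 to 0.04 and a median of -0.08.

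Prg4 had intensities of 180.6 and 169.7 in FeO, 90.8, 77.3, 99.5 and 98.5 in FeA, and 88.2 and 105.3 in FeD. The FeO values were above all others, and FeD and FeA overlapped. Relative to FeA pancreas the FeO mean log2 ratio of 0.82 was 156th of 16433 genes, and the arrays differed by 0.07. In FeD the ratios were -0.04 and 0.45, with opposite signs. FeA was well above background on 1 of 2 arrays in each comparison.

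**Figure D2:**
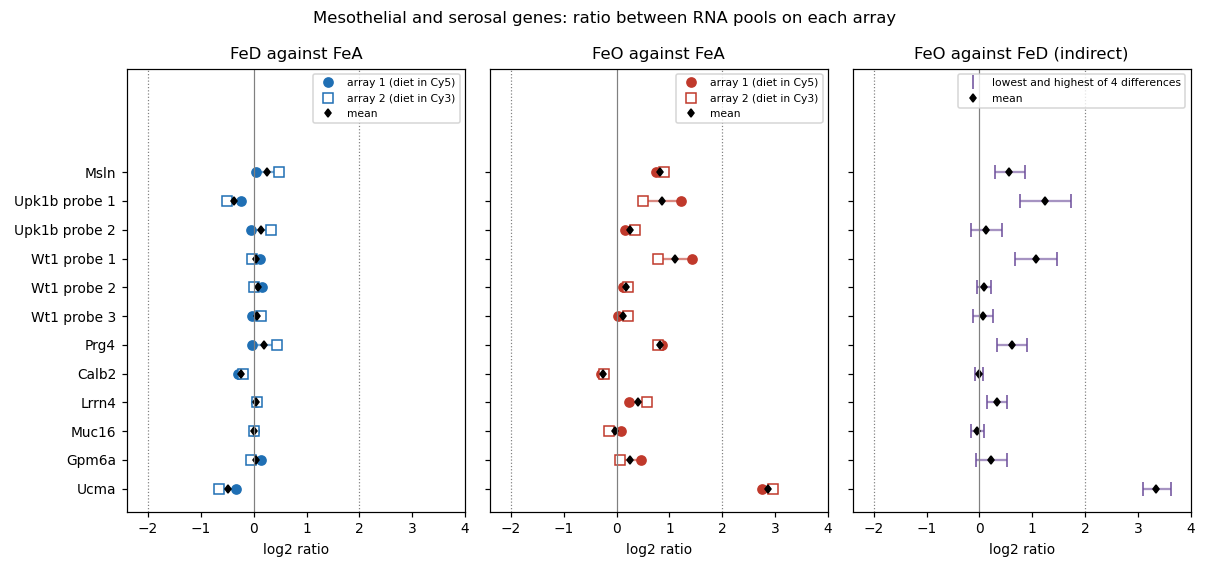
Log2 ratio (horizontal axis) of each of the 12 probes in FeD against FeA, FeO against FeA, and FeO against FeD taken through FeA. Filled circles are array 1, open squares array 2 and diamonds the mean, and in the third panel bars span the lowest and the highest of the 4 differences between an FeO and an FeD array. Dotted lines mark a log2 ratio of 2 in size, which Ucma alone passed (2.86 and 3.35).

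Over all 12 probes, dim ones included, 10 were higher in FeO than in FeA on both arrays and 1 was lower, where 26.3% of all probes were higher on both arrays and 24.6% were lower. In FeD against FeA, 4 were higher on both arrays, 3 were lower and 5 had opposite signs, against 25.3% and 22.3% of all probes. The median over the 9 genes without a filter was 0.47 in FeO and 0.04 in FeD. Over the listed genes that passed the filter it was 0.62 and 0.04, respectively. Lrrn4, Prg4 and Wt1 entered the 0.62 only through the FeO pool, so the filter itself can raise that median. Over all genes that passed, the median was 0.01 in both comparisons. Since the list was chosen with these ratios known, the counts describe it and are no evidence of a shared change. The FeD and FeO ratios use the same FeA pool.

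FeO and FeD pancreas were also set against each other through the FeA pool, as the difference of their mean log2 ratios, in which the level of FeA cancels. Ucma was 10.2-fold higher in FeO than in FeD, with a log2 difference of 3.35 (3.09 to 3.62 over the 4 pairs of arrays), 3rd of 16456 genes. It was the only gene on the list past a log2 difference of 2, where 0.0729% of genes were called higher and 0.0486% lower. With a log2 difference of 1, Upk1b by its brighter probe (1.24, range 0.76 to 1.73) and Wt1 by A_44_P808666 (1.07, range 0.67 to 1.47) were also past it, where 0.474% of genes were called higher and 0.553% lower. Prg4 had a difference of 0.62 and Msln of 0.57, each with the same sign in all 4 pairs of arrays. Over the 12 probes, 6 were higher in FeO in every pair and 0 were lower, against 15.0% and 15.5% of all probes.

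A list of 27 other genes of mesothelium was measured for comparison, and all 27 were on the array. In FeO against FeA 20 passed the filter, of which 12 were higher on both arrays and 4 lower, with a median log2 ratio of 0.44. Over all genes that passed, 26.4% were higher on both arrays and 22.6% lower. Bnc1 and Rspo1 passed only through the FeO pool, since FeA was not well above background on both arrays. Of the list, 0 genes were past a log2 ratio of 2. Past 1 there were 3 higher and 0 lower, against 0.663% and 0.505% of all genes. The highest were Igfbp6, a binding protein of insulin-like growth factors (1.05 and 1.74), the matrix protein gene Efemp1 (0.79 and 1.24) and caveolin Cav1 (1.03 and 0.94). Pdpn, a surface glycoprotein of mesothelium and lymphatic endothelium, had mean ratios of 1.06 and 0.31 by its probes. The lowest were the keratins Krt19 (-1.27 and -0.69) and Krt18 (-0.79 and -0.77), which pancreatic ducts also express, and the lectin gene Itln1 (-0.16 and -0.26). The summed intensity of the list was 21686 to 22552.0 in FeO and 24886 to 28563 in FeA, the opposite direction to the median ratio.

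In FeD against FeA 19 of the 27 passed the filter, with a median of -0.09. Of these, 4 were higher and 5 lower on both arrays, against 23.5% and 20% of all genes that passed. Of the list, 0 genes were past a log2 ratio of 1. The protease inhibitor gene Slpi was highest (0.98 and 0.89), followed by the transcription factor Gata4 (0.02 and 0.73) and Cav1 (0.21 and 0.08). The lowest were Itln1 (-0.59 and -0.81), Krt18 (-0.37 and -0.44) and Krt19 (-0.58 and -0.08). In FeO against FeD, Igfbp6 (1.44), Efemp1 (1.12) and Ptgis, prostacyclin synthase (0.86), were highest and Krt19 (-0.65), Krt18 (-0.37) and Slpi (-0.17) lowest.

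Most adipocyte and fibroblast markers were also higher in FeO. All 9 adipocyte genes on the array, of 10 listed, were well above background in every pool. In FeO 8 were higher on both arrays, where 26.4% of all genes that passed the filter were, with a median log2 ratio of 1.56. The summed intensity of that list was 38672 to 40117 in FeO, 11150.2 to 12207 in the FeA channels of the same arrays, and 8699.8 to 9895.9 in FeD. Adiponectin (Adipoq) had ratios of 1.97 and 2.17, and the gene of complement factor D (Cfd), a protein secreted by fat cells, of 2.20 and 2.41. Leptin (Lep) had -0.11 and 0.31. Of 10 fibroblast and matrix genes, 9 passed the filter in FeO, with Fbln1 passing only through the FeO pool. Of these, 7 were higher on both arrays, against the same 26.4% of all genes, and the median was 0.33. The summed intensity of the fibroblast and matrix list was 22943 to 24574 in FeO against 15788 to 18032 in FeA. In FeD the medians of these lists were -0.03 and 0.01. Their part in the ratios of Msln, Prg4, Wt1 and Ucma was not tested.

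Cartilage genes were measured because Ucma is known from cartilage. Of 8 on the array, Acan, Comp and Matn3 were not well above background in any pool, and the 5 that passed the filter in FeO had ratios between -0.22 and 0.20, with a median of -0.06. Their summed intensity was 1211.5 to 1314.9 in FeO and 1156.6 to 1316.9 in FeA. Smooth muscle genes had a median of 0.04 in FeO and -0.42 in FeD. Pancreatic acinar genes had a median of -0.31 over 8 genes in FeO and -0.06 over 10 in FeD. Cpa1 and Prss1 had no ratio on FeO array 2 and were left out of the FeO median. Of 7 intestinal epithelial genes that passed the filter, 6 were lower on both arrays in each diet, with medians of -1.74 in FeO and -1.38 in FeD, and Vil1 had opposite signs on the arrays. Lymph node genes had a median of -0.70 in FeO and 0.46 in FeD.

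**Figure D3:**
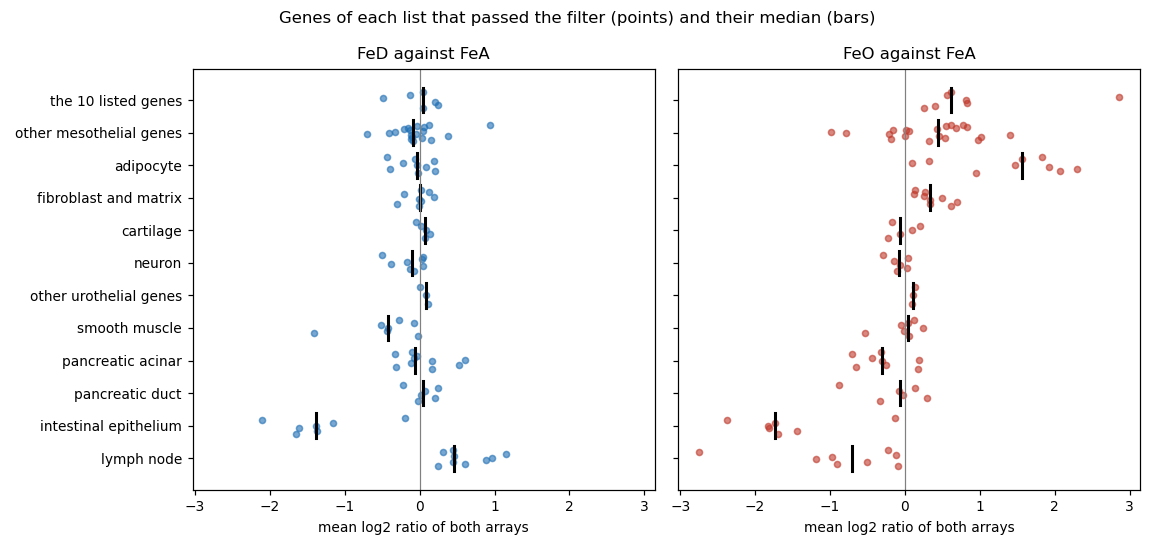
Mean log2 ratio of both arrays (horizontal axis) for each gene that passed the filter in the 12 lists, for FeD against FeA and FeO against FeA. Points are genes and vertical bars list medians. In FeO the adipocyte median lay at 1.56, the other mesothelial genes at 0.44 and the cartilage genes at -0.06, with Ucma the rightmost point of the listed genes at 2.86. Of the 9 listed genes on the array, 6 passed in FeD and 7 in FeO.

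The genes whose ratios on the 4 arrays were nearest to those of Ucma, among 15490 probes well above background in every pool, were Pla2g2a, Cfd, Car3, C6 and Aox1. The Euclidean distance over the 4 log2 ratios was 0.72 for Pla2g2a and 0.91 for Cfd, and 1.14 to 1.40 for the others. Pla2g2a had -0.59 and -0.53 in FeD and 2.65 and 3.61 in FeO. For the brighter Upk1b probe, the nearest were Fam57b, Art3, Fitm2, Acsl1 and Slc7a6, at distances of 0.37 to 0.46. All 4 values share the FeA pool, so likeness is a description of these arrays.

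The FeO ratios of dim genes moved most with the processing. With the scanner software's processed signals, in which background correction and dye normalization both differ, the mean log2 ratio in FeO was 2.12 for Prg4, 1.61 for Lrrn4, 1.52 for Wt1 over its probes and 0.90 for Gpm6a, compared with 0.82, 0.40, 0.47 and 0.26 as reported. For Ucma it was 3.18 (2.86 as reported) and for Msln 0.83, its reported value. The ratios of Prg4, Lrrn4, Wt1, Gpm6a, Upk1b, Msln and Ucma were positive under every setting tried.

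**Figure D4:**
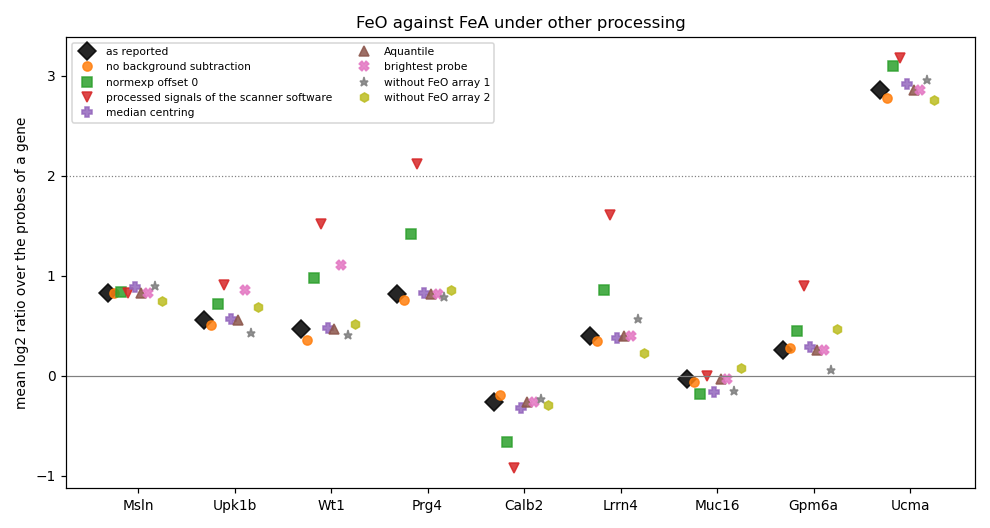
Mean log2 ratio of FeO against FeA (vertical axis), averaged over the probes of a gene, for the 9 genes under each processing. Black diamonds are the values as reported and other symbols the alternatives named in the key. Msln stayed between 0.75 and 0.90 and Ucma between 2.76 and 3.18, while Prg4 ranged from 0.76 to 2.12.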

How the data were processed

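Per the file headers, the authors extracted the spots with Agilent Feature Extraction 10.1.1.1. The deposited intensity values are median spot and local background signals, uncorrected, and processed signals that the software had background corrected and dye normalized. The deposited log10 values are red over green, not turned for the swap. The authors' tables also hold their fold changes, p-values, q-values and a tag per probe, and only their gene symbols were used. The file headers give 1 slide barcode and 1 scan for all 4 arrays, although the labels number them as slides 1 to 4. The tables named 22949 of 30367 gene probes, and 7418 kept the array's name.

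The log2 ratios come from limma 3.58.1 (R 4.3.3): normexp (offset 50), loess within each array with control spots at weight 0, outlier spots left out (722 to 938 per array), spots of a probe averaged, ratios turned to diet over FeA, and the 2 arrays averaged. A probe passed the filter when 1 of the compared pools was well above background (over 50% of its spots) on every array of the comparison. A gene was called by any of its probes. Where 1 pool was not well above background on any array, the fold was computed after loess and Aquantile. It sets the brighter pool against the higher of the dim probe's signal and the dimmest detected probe of that array. That level, not a count, sets the precision, and the number of arrays limits it.

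The list, the marker lists and the criteria were chosen with earlier results of these data known. All genes of the list are named, with the 3 highest and 3 lowest of the other mesothelial genes and the 5 genes nearest in ratio to the 2 listed genes whose mean ratio by a probe was largest in size in any comparison (Ucma and Upk1b, both in FeO against FeD), among probes well above background in every pool. The alternatives were other background corrections, signals, normalizations, filters and sizes, the brightest probe, each array left out, and tests of the pools (the t-test named in the methods, and limma with Benjamini-Hochberg adjustment at 0.05). Counts and ranks used pandas 2.3.3 and numpy 2.4.6 (Python 3.11.15), and the t-test used scipy 1.17.1. The steps were tested on simulated data in which only bright probes were changed, so that test does not cover the dim genes on the list.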

Additional observations from a re-analysis of the deposited data

Results flagged for a closer look

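Ucma was higher than FeA on both FeO arrays (mean log2 ratio 2.86) and lower on both FeD arrays (mean -0.49), opposite directions in the 2 diets. Upk1b, averaged over its 2 probes, also had opposite directions, with a mean of 0.56 in FeO and -0.12 in FeD. The difference between the diets was not tested in either case, since each diet is 1 pool. For Upk1b the dimmer probe had opposite signs on the FeD arrays.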

How the results depend on the processing

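The count of listed genes past a log2 ratio of 2 was 0 in FeD against FeA under every alternative tried, including a log2 ratio of 1. The methods' t-test and limma were added to the size criterion and could only remove genes, so their 0 was fixed in advance. The same holds for the filter on both pools and the brightest probe. In FeO against FeA the count was 1 (Ucma). It became 2 with normexp at offset 0 (Wt1 added), 3 with the processed signals (Wt1 and Prg4 added) and 2 with a log2 ratio of 1 (Wt1 added). With the methods' t-test it was 1, and 0 after Benjamini-Hochberg adjustment, whereas limma with that adjustment left 1. In FeO against FeD the count of 1 became 2 with offset 0, 2 with the processed signals and 3 with a log2 ratio of 1, and limma left 1. With either array of a comparison left out, the count was 0 to 0 in FeD, 1 to 1 in FeO against FeA and 1 to 1 in FeO against FeD. These tests compare the pools and not the diets. Of the 9 genes, 6 kept their sign in FeD under every alternative, 8 in FeO and 7 in FeO against FeD. The sign changed for Prg4, Muc16 and Gpm6a in FeD, for Muc16 in FeO, and for Muc16 and Calb2 in FeO against FeD. The Calb2 difference between FeO and FeD was -0.01 as reported and up to 0.95 otherwise, and its FeD ratio reached -1.87 with another processing.

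Over all genes the number past a log2 ratio of 2 was 17 in FeD, and 28 with offset 0, 66 with processed signals, 59 with a log2 ratio of 1, 7 with the methods' t-test and 0 after its adjustment. In FeO it was 32, and 67, 146, 192, 16 and 0 under the same alternatives. In FeO against FeD it was 20, and 52, 144 and 169 under the first 3 of these. Of the genes called in FeO, not of all genes, 31.2% were higher, against 41.8% with offset 0 or processed signals and 53.7% without FeO array 1. Of the genes called in FeO against FeD, 60.0% were higher, against 46.5% with processed signals and 70.6% with median centring. No setting moved the median of all genes by more than 0.04. No paired analysis was possible because the swapped arrays share their RNA extracts and each diet is 1 pool. Signal over background limits Muc16, Calb2, Lrrn4, Prg4 and all Wt1 probes.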
